A study of Mus musculus with 8 samples.

Results

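The cells described here are CD8 T cells of the mouse heart after pressure overload. They were chosen by the RNA of each barcode in 4 single-cell libraries, 1 each for sham surgery (sham) and for 2, 4 and 6 weeks after transverse aortic constriction (TAC-2w, TAC-4w and TAC-6w), an operation that narrows the aorta and makes the heart pump against a raised pressure. A barcode is the tag that marks the RNA of a single droplet, and a UMI count is the number of RNA molecules counted for it. From 32473 deposited barcodes, 27053 passed limits of 200 and 6000 on the genes, of 500 and 30000 on the UMIs and of 15% on the mitochondrial UMIs. Of these, 250 had at least 2 UMIs of Cd3d, Cd3e and Cd3g together, at least 1 UMI of Cd8a and Cd8b1 together, no UMI of Cd4 or Cd79a and fewer than 5 UMIs of the C1q genes. They were 56 cells in sham, 57 in TAC-2w, 117 in TAC-4w and 20 in TAC-6w.

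All mice were wild-type male C57BL/6J, 8 weeks old at surgery, and the sham mice had the operation without the constriction. The sham and TAC-6w libraries carry the same batch label (batch 3), TAC-2w carries batch 1 and TAC-4w batch 2, so the TAC-2w and TAC-4w libraries cannot be told apart from their batches. It is not settled whether cells or nuclei were loaded, since the extraction protocol in the labels is for nuclei and the methods speak of dissociated cells; the word cells is used here for both. With 1 library for each condition no difference between conditions could be tested, and the intervals given with shares, levels and ratios are 95% intervals that cover counting error only. Spatial transcriptomes of 4 heart sections, 1 for each condition, were used for the same genes.

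CD8 T cells recognise peptides held by MHC class I molecules and can kill the cell that shows them. Before they meet their antigen they are naive: they circulate between blood and lymph nodes, kept by the transcription factors Tcf7, Lef1 and Satb1 and by the survival receptor Il7r, and guided by the homing receptors Ccr7 and S1pr1. After activation they become effector and memory cells, which carry granules of granzymes and perforin, secrete chemokines such as Ccl5 and the cytokine interferon gamma, and enter tissues. In pressure overload T cells are known to gather in the heart.

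The depth of the libraries set how much of this could be seen. The CD8 T cells of sham held 413435 UMIs in all, those of TAC-2w 405222, those of TAC-4w 737643 and those of TAC-6w 68753. Their median UMI count per cell was 5749, 6439, 5162 and 3069.5 in the same order, and their median gene count 1627.5, 1695, 1725 and 942.5. The TAC-6w cells were thus both the fewest and the shallowest, and a gene with 1 UMI there already stood at 14.5 per 1000000.

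The label was checked against genes that the choice did not use. At least 1 UMI of the T cell receptor genes Trac, Trbc1 or Trbc2 was found in 56 of 56, 57 of 57, 117 of 117 and 19 of 20 cells, against 2.96% of the 3751 B cells and 69.8% of the 537 NK cells of the same libraries. These genes thus set the cells apart from B cells but only in part from NK cells, which had a UMI of them in 74.2%, 68.8%, 68.6% and 62.5% of cells from sham to TAC-6w. Cd8a and Cd8b1, which encode the 2 chains of the CD8 coreceptor, were part of the choice and so are no check of it. Both were detected in 67.9%, 75.4%, 78.6% and 35.0% of the cells. Few cells had Cd8a without Cd8b1, namely 4, 4, 6 and 2. Gzmk, a granzyme often found in CD8 memory cells and the marker that the choice did not use, stood at 102, 56.8, 117 and 116 UMIs per 1000000 UMIs of the CD8 T cells (CPM), the TAC-6w value resting on 8 UMIs. No cell barcode sequence was shared between the CD8 T cells of any 2 libraries.

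The cells were selected on Cd3d, Cd3e, Cd3g, Cd8a, Cd8b1 and Cd4, so their levels are only a description. Cd3e stood at 372, 365, 420 and 465 CPM and Cd8b1 at 810, 829, 1082 and 887 CPM. Just inside its limits, 23 cells had exactly 1 UMI of the CD8 genes (6, 4, 9 and 4). Just outside them, 12, 22, 45 and 0 barcodes met every other condition but had a UMI of Cd4, and 72, 47, 136 and 27 T cell barcodes had neither Cd4 nor a CD8 gene.

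CD8 T cells were 0.681% of the kept barcodes in sham (0.515 to 0.883) and 0.877% in TAC-2w (0.665 to 1.13). They were 1.73% in TAC-4w (1.44 to 2.07) and 0.359% in TAC-6w (0.219 to 0.553). Against sham this was 1.29-fold in TAC-2w (0.875 to 1.90), 2.55-fold in TAC-4w (1.84 to 3.57) and 0.527-fold in TAC-6w (0.299 to 0.892). The TAC-4w share stood above the other 3 and the TAC-6w share, from the same batch as sham, lay below sham. The size of the TAC-4w ratio depended on which cells were kept. Without the cells that had a UMI of any of 9 genes of other lineages, 39, 42, 45 and 15 CD8 T cells remained. TAC-4w was then 1.41-fold of sham (0.896 to 2.22). TAC-6w was 0.567-fold (0.291 to 1.05), about as low as with all cells. Both intervals then included 1.

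The same libraries differed in their other blood cells. B cells were 3.00%, 2.43%, 37.1% and 15.2% of the kept barcodes, and NK cells 1.88%, 0.492%, 4.71% and 0.574%. CD4 T cells were 0.292%, 0.323%, 1.51% and 0.108%, in TAC-4w 5.18-fold of sham (3.30 to 8.46). Barcodes with neutrophil genes were 1.94%, 1.18%, 20.4% and 3.77%, and those with platelet genes 0.535%, 0.169%, 7.91% and 0.215%. Barcodes with at least 10 UMIs of red blood cell genes were 10.0%, 1.98%, 5.99% and 0.556%. TAC-4w was the highest library for B cells, NK cells, CD4 T cells, neutrophil and platelet genes and sham for red blood cell genes, and what part the blood content of the hearts had in the CD8 T cell share was not tested. Counted among the T cells instead, CD8 T cells were 34.1% of the barcodes with at least 2 CD3 UMIs in sham (26.9 to 41.9), 38.8% in TAC-2w (30.9 to 47.2), 29.2% in TAC-4w (24.8 to 34.0) and 37.7% in TAC-6w (24.8 to 52.1). These 4 intervals overlapped each other. Of the CD8 and CD4 T cells together, CD8 T cells were 70.0% (58.7 to 79.7), 73.1% (61.8 to 82.5), 53.4% (46.6 to 60.2) and 76.9% (56.4 to 91.0). There TAC-4w was lowest and its interval did not reach that of TAC-2w, while it overlapped those of sham and TAC-6w.

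In the tissue sections the genes of CD8 T cells had another order over time. Cd8a and Cd8b1 together had 15 UMIs in the sham section, 6 in TAC-2w, 96 in TAC-4w and 164 in TAC-6w, which is 0.577, 0.123, 3.01 and 3.40 CPM of the section's UMIs. Against sham these were 0.213-fold (0.0678 to 0.582), 5.21-fold (3.01 to 9.67) and 5.89-fold (3.47 to 10.8). A UMI of either gene was found in 0.597% of the sham spots, 0.291% in TAC-2w, 5.29% in TAC-4w and 5.61% in TAC-6w.

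The 3 CD3 genes had ratios to sham of 0.482, 4.03 and 6.54 in the sections. The most abundant effector gene of the CD8 T cells, Ccl5, stood at 2.50, 2.85, 21.7 and 22.7 CPM there, and Gzma, a granzyme, at 0.423, 0.492, 2.38 and 2.98 CPM. Both late sections were thus above sham in Cd8a and Cd8b1, in the CD3 genes and in these effector genes. At 6 weeks the section stood at 5.89-fold the CD8 gene level of sham and the library at 0.527-fold the CD8 T cell share of sham. A section is a single slice and a spot holds several cells, so more CD8 T cells and more RNA per cell cannot be told apart in it. By their labels the sham and TAC-2w sections share a batch, and the sham section shares none with the later 2.

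**Figure D1:**
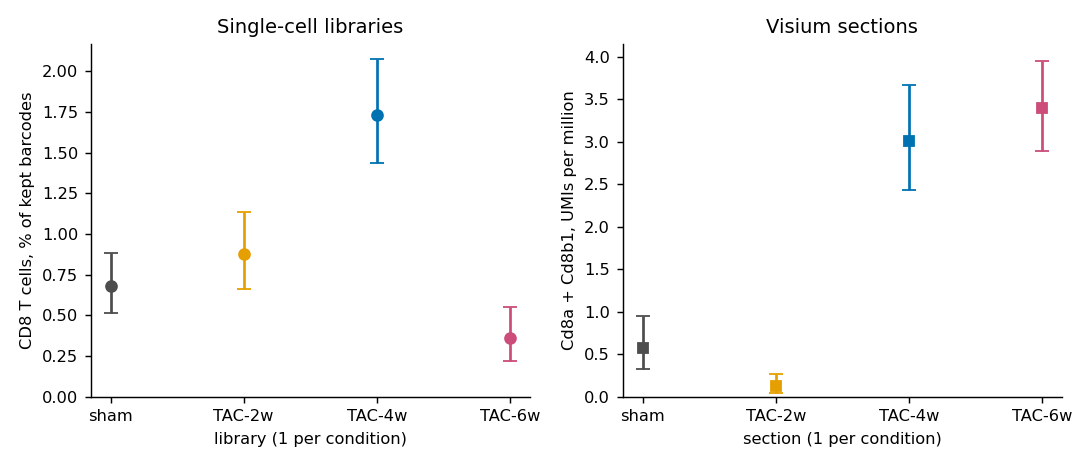
CD8 T cells as a percentage of the kept barcodes of each single-cell library with 95% Clopper-Pearson intervals (left), and Cd8a and Cd8b1 UMIs in CPM of each tissue section with exact Poisson 95% intervals (right). The library of TAC-6w lies lowest on the left, at 0.359%, and its section highest on the right, at 3.40 CPM.

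The CD8 T cells of each library were a mixture, and 3 kinds were told apart by their own counts. The first kind had at least 2 UMIs of Rag1, Rag2, Dntt, Ptcra and Arpp21, genes of developing thymocytes. The Rag genes cut and Dntt extends the receptor gene segments, and Ptcra is the early partner of the receptor beta chain. The other cells were split by whether they had more UMIs of 26 effector genes or of 15 naive and homing genes. The effector list took in granzymes, perforin, chemokines, cytokines, killer cell receptors and transcription factors such as Tbx21, Zeb2 and Id2. Of the 250 cells, 29 had the recombination genes, 156 leaned to effector genes and 65 leaned to naive genes. Only 2 of the 250 were within 2 UMIs of having the same number from both lists, so a shift of the cut by 2 UMIs would move few cells. This does not show how the division depends on the genes of the lists. Ccl5 alone gave 65.9% of the effector UMIs, and the division was not repeated without it.

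Effector-leaning cells were 42 of 56 in sham (75.0%, 61.6 to 85.6) and 24 of 57 in TAC-2w (42.1%, 29.1 to 55.9). They were 75 of 117 in TAC-4w (64.1%, 54.7 to 72.8) and 15 of 20 in TAC-6w (75.0%, 50.9 to 91.3). TAC-2w had the smallest share and its interval did not reach that of sham. Cells were also thinned to 1000 UMIs, and those with fewer were left out, which kept 55 cells in TAC-2w and 19 in TAC-6w. The shares were then 71.4% (57.8 to 82.7), 45.5% (32.0 to 59.4), 64.1% and 78.9%. Without the cells with recombination genes they were 80.8% (67.5 to 90.4), 57.1% (41.0 to 72.3), 70.1% and 75.0%. TAC-2w was lowest in both, but its interval then overlapped that of sham.

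Cells with recombination genes were 4 of 56 in sham (7.14%, 1.98 to 17.3), 15 of 57 in TAC-2w (26.3%, 15.5 to 39.7) and 10 of 117 in TAC-4w (8.55%, 4.17 to 15.2). None were found among the 20 cells of TAC-6w, which allows a share of up to 15% with 3 cells set as the limit. None of the 29 leaned to effector genes. The same genes were found in 10 of 12, 18 of 22 and 41 of 45 of the T cell barcodes with UMIs of both Cd4 and a CD8 gene in sham, TAC-2w and TAC-4w. They were found in 2 of 153 CD4 T cells, in 0 of 282 T cell barcodes without Cd4, Cd8a or Cd8b1 and in 0 of 537 NK cells. They were found in 29 of 3751 B cells (0.773%), 3, 2, 21 and 3 by library. Among T cell barcodes they thus went with those that had a CD8 gene. What part thymus tissue taken with the heart may have had in these cells was not tested.

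The cells with recombination genes differed from the rest in more than the genes that chose them. Tcf7, Satb1, Lef1, Klf2, Ccr7, S1pr1 and Il7r are on the list that defines naive-leaning cells, so the comparison with those cells is fixed in part. Their levels of Tcf7 (1117 CPM) and Satb1 (1452 CPM) were above those of naive-leaning cells (387 and 495 CPM), and Cd24a, a surface protein of immature T cells, stood at 391 against 26.3 CPM. Their Ccr9, a chemokine receptor of thymocytes and gut-homing T cells, stood at 369 CPM, against 69.3 CPM in naive-leaning and 0.973 CPM in effector-leaning cells. Other genes of the same list stood lower than in naive-leaning cells, with Klf2 at 218 against 1559 CPM and Lef1 at 151 against 402 CPM. No UMI of Ccr7 or S1pr1 was counted in their 179087 UMIs and 1 UMI of Il7r, while naive-leaning cells had 397, 263 and 849 CPM of these 3 genes. The chains of MHC class I stood lower, with B2m at 581 CPM against 1913 CPM in naive-leaning and 2598 CPM in effector-leaning cells, H2-D1 at 274 against 1312 and 2004 CPM and H2-K1 at 89.3 against 1585 and 2008 CPM. The immunoproteasome gene Psmb8 of the same list did not share this, at 687 against 390 and 626 CPM. Psmb9, another, stood at 145 CPM, near the 134 CPM of naive-leaning cells and below the 275 CPM of effector-leaning cells. Mki67 or Top2a, genes of dividing cells, were detected in 11 of the 29 (37.9%) and in 41 of the 221 other cells (18.6%).

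Naive-leaning and effector-leaning cells also differed in genes outside the lists that divided them. The calcium-binding genes S100a6 (445 against 1867 CPM) and S100a4 (198 against 1026 CPM), Ly6c2, a marker of memory CD8 T cells (502 against 1234 CPM), and Cxcr3, a receptor that draws T cells into inflamed tissue (16.7 against 139 CPM), were higher in effector-leaning cells. Cd44, a marker of antigen-experienced T cells, stood at 40.6 and 121 CPM. Cd69, an early activation gene, differed little, at 471 and 449 CPM. All of these are sums over the 4 libraries and a description, since cells of a library are not replicates.

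**Figure D2:**
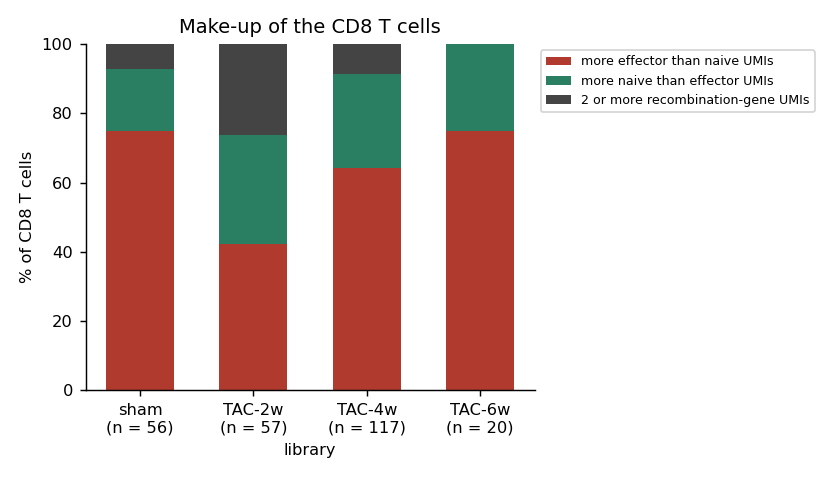
Number of CD8 T cells of each kind as a percentage of the CD8 T cells of each library: cells with recombination genes, cells with more naive than effector UMIs, and cells with more effector than naive UMIs. Effector-leaning cells make up 75.0%, 42.1%, 64.1% and 75.0% from sham to TAC-6w, and cells with recombination genes are most frequent in TAC-2w, at 26.3%.

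Levels per cell were widely spread within each library. The effector genes of a sham cell had between 0 and 966 UMIs per 10000, with a median of 168, and those of a TAC-2w cell between 0 and 754 with a median of 10.9. In TAC-4w the lowest, median and highest were 0, 181 and 952, and in TAC-6w 2.91, 204 and 828. The naive genes had medians of 19.1, 38.3, 35.8 and 34.0 per 10000, and at most 97.6, 125, 113 and 78.5. The ranges of all 4 libraries overlapped for both lists, and the TAC-2w median of the effector genes lay below the other 3.

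**Figure D3:**
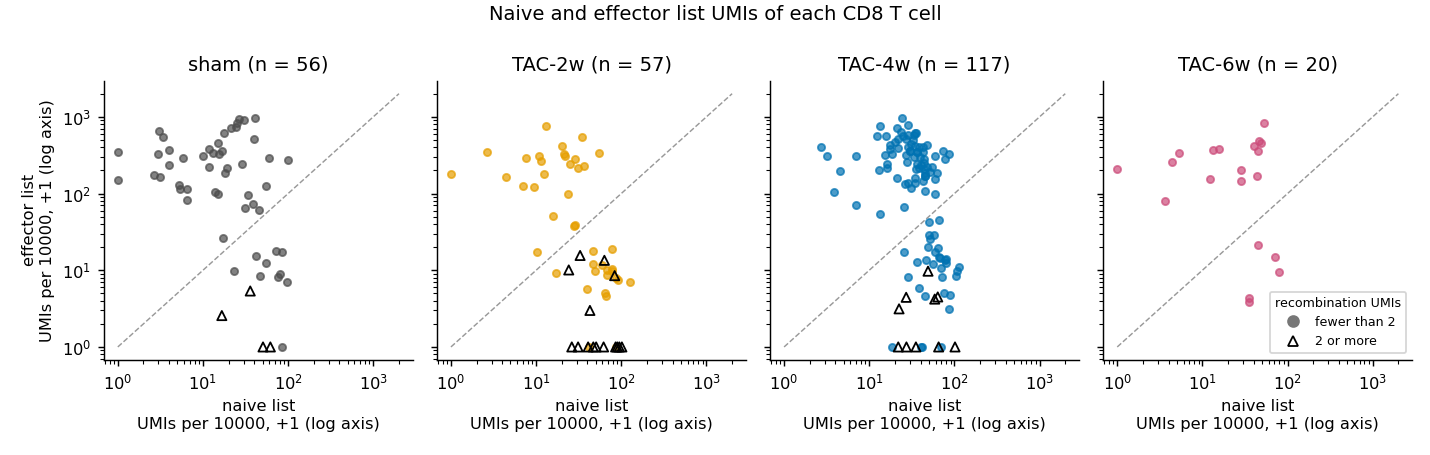
Naive and homing genes (x axis) against cytotoxic effector genes (y axis), in UMIs per 10000 plus 1 on logarithmic axes, for each of the 250 CD8 T cells in a panel per library, with a dashed line at the same level of both lists and open triangles for cells with recombination genes. The cells form an upper group rich in effector genes and a lower group with few, and TAC-2w has more of its cells in the lower one, with a median effector level of 10.9 against 168 in sham.

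The 15 naive and homing genes together stood at 2557 CPM in sham (2405 to 2716), 3583 in TAC-2w (3401 to 3772), 3888 in TAC-4w (3747 to 4033) and 3054 in TAC-6w (2655 to 3497). This was 1.40-fold (1.29 to 1.52), 1.52-fold (1.42 to 1.63) and 1.19-fold (1.03 to 1.39) of sham. All 3 TAC libraries were above sham. Klf2, a transcription factor that keeps T cells circulating, gave 34.8% of the list's UMIs and differed least, at 1117, 1197, 1216 and 1440 CPM.

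Of the transcription factors, Tcf7 stood at 164, 417, 329 and 145 CPM, 2.54-fold (1.90 to 3.41), 2.00-fold and 0.884-fold of sham. Satb1 stood at 135, 449, 389 and 131 CPM. Over all CD8 T cells both were highest in TAC-2w and near the sham level in TAC-6w. Without the cells with recombination genes Tcf7 stood at 87.5, 237, 255 and 145 CPM and Satb1 at 74.7, 198, 259 and 131 CPM. Both were then highest in TAC-4w, and in TAC-6w they were 1.66-fold (0.732 to 3.44) and 1.75-fold (0.730 to 3.80) of sham. Lef1, which acts with Tcf7, stood at 102, 170, 193 and 189 CPM, the last resting on 13 UMIs in 3 cells, of which 1 held 69.2%.

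Of the receptors, Il7r stood at 273, 247, 622 and 320 CPM and S1pr1, through which T cells leave lymph nodes, at 96.8, 109, 218 and 175 CPM. In TAC-4w they were 2.28-fold (1.85 to 2.82) and 2.26-fold (1.59 to 3.27) of sham, and in TAC-2w 0.903-fold and 1.12-fold. Ccr7, the chemokine receptor for entry into lymph nodes, stood at 48.4, 190, 115 and 131 CPM. The TAC-6w value, 2.71-fold of sham (1.08 to 6.22), rested on 9 UMIs in 6 cells and was 0.975-fold (0.184 to 3.34) without the cells that had a UMI of another lineage's genes. Dapl1, a gene of naive CD8 T cells, stood at 91.9, 151, 190 and 131 CPM. In TAC-4w it was 2.06-fold of sham (1.43 to 3.04) and, without those cells, 1.23-fold (0.768 to 1.97).

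Counted over the genes of the list with at least 20 UMIs in either of the 2 libraries compared, 4 of 13 were at least 2-fold of sham in TAC-2w, where 4.4% of all 3134 genes were. In TAC-4w it was 8 of 14 against 7.32% of 4440 genes, and in TAC-6w 1 of 11 against 3.52% of 2727. At most 0.5-fold were 0, 1 and 1 genes of the list, where 3.96%, 6.69% and 27.4% of all genes were. The median ratio over the list was 1.64, 2.03 and 1.27, and over all genes 0.982, 1.04 and 0.749. The list was chosen with earlier results of these data known, and a gene can reach the minimum through the library where it is high, so these counts describe the list without a test.

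The promoters of 2 effector genes and 2 naive genes are shown, since these are the 2 groups of genes that divide the cells. They are the 2 most abundant genes of each list with a single promoter entry. Such an entry was held by 18 of the 26 effector and 7 of the 15 naive genes. This left out Ccl5, the most abundant effector gene, so the 4 do not stand for their lists. The sequences are the 250 bases before the start of the gene in RefSeq on GRCm38.p6, on the strand of the gene, 5′ to 3′. Capitals mark matches on either strand to the letters GGTGTGA (bound by T-box factors), TGTGGT (RUNX factors), CCACCC (KLF factors) and CTTTGA (TCF and LEF factors). Nkg7, a granule membrane protein, lies on the plus strand at chr7:43436888-43437137 and Gzma on the minus strand at chr13:113100982-113101231. Klf2 is on the plus strand at chr8:72318812-72319061 and Il7r on the minus strand at chr15:9529877-9530126.
Nkg7: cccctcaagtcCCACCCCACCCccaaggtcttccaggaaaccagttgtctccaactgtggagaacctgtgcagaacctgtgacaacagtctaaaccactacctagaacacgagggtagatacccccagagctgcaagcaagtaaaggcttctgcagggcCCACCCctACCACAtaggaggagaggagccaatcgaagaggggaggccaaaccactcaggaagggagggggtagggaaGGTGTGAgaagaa
Gzma: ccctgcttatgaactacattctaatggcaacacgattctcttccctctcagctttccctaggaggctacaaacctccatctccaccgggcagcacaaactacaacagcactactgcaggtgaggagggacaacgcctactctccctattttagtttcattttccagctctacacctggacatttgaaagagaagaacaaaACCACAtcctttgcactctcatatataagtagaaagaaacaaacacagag
Klf2: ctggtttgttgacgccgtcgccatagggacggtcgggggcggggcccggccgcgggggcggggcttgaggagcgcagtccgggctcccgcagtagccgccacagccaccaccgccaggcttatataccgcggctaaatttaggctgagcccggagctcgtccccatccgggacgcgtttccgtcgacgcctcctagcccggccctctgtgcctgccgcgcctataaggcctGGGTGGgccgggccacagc
Il7r: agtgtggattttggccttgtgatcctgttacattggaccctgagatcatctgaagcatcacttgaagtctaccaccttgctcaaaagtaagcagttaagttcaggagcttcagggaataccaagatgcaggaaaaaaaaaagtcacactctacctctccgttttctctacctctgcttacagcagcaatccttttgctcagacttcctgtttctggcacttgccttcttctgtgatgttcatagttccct
The Nkg7 promoter held 1 T-box, 1 RUNX and 3 KLF matches, of which 2 overlap, that of Gzma 1 RUNX match and that of Klf2 1 KLF match, and that of Il7r none. Among 32851 promoters of the same length, 3.33% held the T-box letters, 14.0% the RUNX, 28.1% the KLF and 13.8% the TCF and LEF letters. A match is a description of the letters and not a binding site.

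The 26 effector genes together stood at 20068 CPM in sham (19639 to 20505), 9538 in TAC-2w (9240 to 9844), 19629 in TAC-4w (19310 to 19951) and 19301 in TAC-6w (18276 to 20368). TAC-2w was 0.475-fold of sham (0.457 to 0.494), while TAC-4w (0.978, 0.952 to 1.00) and TAC-6w (0.962, 0.907 to 1.02) were close to it. This closeness rested on Ccl5, without which the list was 0.509-fold, 0.822-fold and 0.545-fold of sham (0.481 to 0.616 in TAC-6w). Without the cells with recombination genes the ratios were 0.535, 1.03 and 0.904. The effector-leaning cells taken alone had 24754, 18307, 31574 and 29861 CPM of these genes, a level that the choice of these cells by their effector UMIs fixes in part. CD4 T cells, taken by the same rule with Cd4 in place of the CD8 genes, had 2435, 6105, 3463 and 5017 CPM. NK cells had 51274, 48078, 48210 and 42824 CPM. The CD8 T cells lay between both in every library.

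Chemokines made up most of the list. Ccl5, which recruits T cells and monocytes, gave 65.9% of its UMIs and stood at 12520, 5696, 13422 and 15185 CPM, 0.455-fold, 1.07-fold and 1.21-fold of sham. In TAC-4w its direction depended on which cells were kept: it was 0.960-fold (0.914 to 1.01) without the cells that had a UMI of another lineage's genes and 0.983-fold (0.950 to 1.02) without the highest doublet scores. Ccl4 stood at 994, 642, 389 and 567 CPM. Ccl3 had 261, 88.8 and 17.6 CPM in the first 3 libraries and no UMI in TAC-6w, where 3 UMIs would be 43.6 CPM. Ccl5 thus had its lowest level in TAC-2w, whereas Ccl4 and Ccl3 were highest in sham. Much of these 2 lay in few cells. For Ccl4, 3 cells held 47.2%, 63.5%, 51.6% and 56.4% of the UMIs, and for Ccl3 54.6%, 83.3% and 61.5% in the first 3 libraries.

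The granule genes did not share 1 order. Gzma stood at 1669, 254, 922 and 175 CPM and Gzmb, another granzyme, at 668, 350, 533 and 116 CPM. Both were highest in sham and lowest in TAC-6w. Prf1, the perforin that lets granzymes in, stood at 75.0, 39.5, 125 and 43.6 CPM, highest in TAC-4w and lowest in TAC-2w. Gzma, Gzmb, Prf1, Gzmk and Gzmm together were 0.293-fold, 0.699-fold and 0.211-fold of sham. Not every granzyme had the order of Gzma and Gzmb. Gzmm stood at 31.4, 44.4, 82.7 and 87.3 CPM and Gzmk at 102, 56.8, 117 and 116 CPM, on 6 and 8 UMIs in TAC-6w. In TAC-2w Gzmk was 1.07-fold of sham (0.551 to 2.08) without the cells that had a UMI of another lineage's genes. In TAC-6w Gzma and Gzmb were thus low while Ccl5 was at its highest. Gzma was detected in 15, 11, 31 and 2 cells, and the 3 cells richest in it held 52.9%, 61.2%, 40.3% and 100% of its UMIs. Gzmb was detected in more cells, 30, 15, 38 and 3, of which 3 held 43.8%, 57.0%, 54.5% and 100% of its UMIs. The ratios of Gzma and Gzmb therefore rest in large part on few cells, in TAC-6w on 12 and 8 UMIs.

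Nkg7 stood at 1548, 874, 1459 and 945 CPM. Klrd1, a subunit of an inhibitory receptor for MHC class I, stood at 206, 165, 317 and 262 CPM, and its partner Klrc1 at 123, 39.5, 156 and 145 CPM. Ifng, interferon gamma, stood at 247, 207, 140 and 233 CPM. Id2, a regulator of effector cells, stood at 450, 308, 407 and 145 CPM. TAC-2w was the lowest of the 4 libraries for Nkg7, Klrd1 and Klrc1. No order is read from Ifng, since 1 cell held 68.8% of its 16 UMIs in TAC-6w and 44.0% of its UMIs in TAC-2w.

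In the effector list 6 of 19 genes with at least 20 UMIs were at most 0.5-fold of sham in TAC-2w, where 3.96% of all genes were, and 1 was at least 2-fold (4.4% of all genes). In TAC-4w 2 of 24 were at most 0.5-fold (6.69% of all genes) and 5 at least 2-fold (7.32%). In TAC-6w 6 of 18 were at most 0.5-fold, but so were 27.4% of all genes, and 0 were at least 2-fold (3.52%). The median ratios were 0.559, 1.25 and 0.771 beside 0.982, 1.04 and 0.749 over all genes. For TAC-6w both the count at most 0.5-fold and the median were thus near those of all genes.

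**Figure D4:**
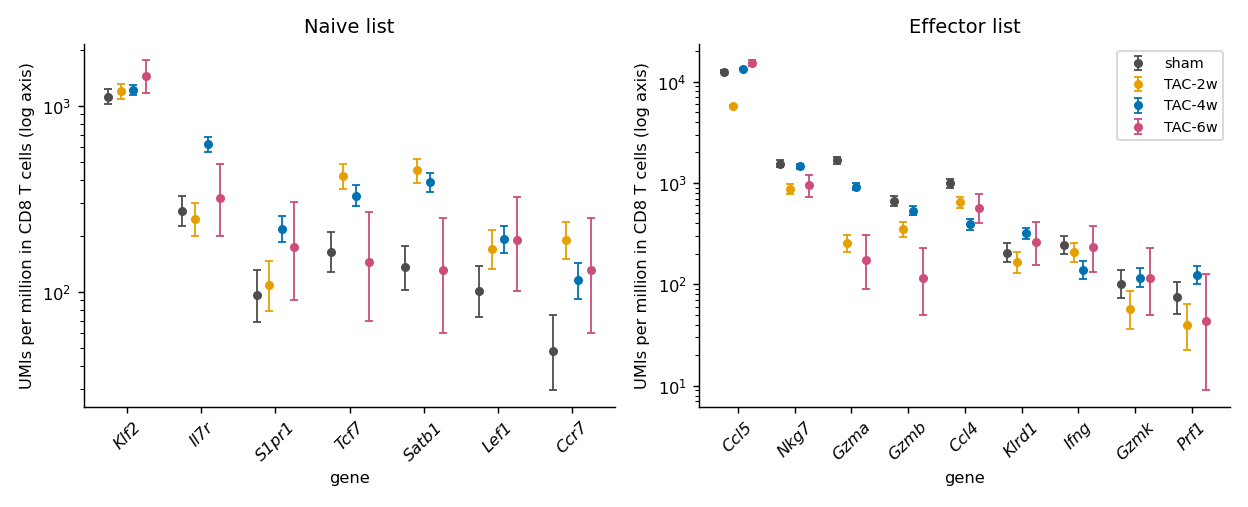
Levels in the CD8 T cells of each library, in UMIs per 1000000 on a logarithmic axis, for 7 genes of the naive list (left) and 9 of the effector list (right), with exact Poisson 95% intervals. Ccl5 is lowest in TAC-2w, at 5696, while Gzma is low in both TAC-2w and TAC-6w, at 254 and 175.

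Genes of memory, residence and inhibition were counted by list. Memory genes stood together at 2903, 2413, 3079 and 2240 CPM and residence genes at 1142, 957.5, 1160 and 960 CPM. Ly6c2 stood at 1004, 802, 942 and 625 CPM and Cxcr3 at 111, 49.4, 102 and 131 CPM. Cd69, which also holds T cells in tissues, stood at 435, 321, 462 and 320 CPM. The inhibitory receptor Pdcd1 stood at 31.4, 29.6, 4.07 and 87.3 CPM, with 3 UMIs in TAC-4w. The 8 genes of inhibition and exhaustion stood together at 215, 173, 165 and 349 CPM, 1.62-fold of sham in TAC-6w on 24 UMIs (0.988 to 2.57). This level was low beside the effector genes in all 4 libraries.

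Other lists hold genes that respond to signals or to handling. The interferon-inducible genes stood at 3384, 2988, 1383 and 902 CPM, of which Ifi27l2a gave 61.0%, at 2547, 1755, 610 and 553 CPM. Of the genes of this list with at least 20 UMIs, 4 of 11 were at least 2-fold of sham in TAC-2w (4.4% of all genes) and 0 at most 0.5-fold (3.96%). In TAC-4w 0 of 11 were at least 2-fold (7.32%) and 2 at most 0.5-fold (6.69%), and in TAC-6w 0 of 10 (3.52%) and 6 (27.4%). The median ratios were 1.46, 0.821 and 0.216, against 0.982, 1.04 and 0.749 over all genes. Fos, an immediate early gene, stood at 972, 842, 241 and 422 CPM and Egr1, which follows T cell receptor signals and also tissue dissociation, at 651, 553, 75.9 and 189 CPM. TAC-4w had the lowest value for both, but few cells carried the others. For Egr1, 3 cells held 71.7% of the UMIs in sham, 75.9% in TAC-2w and 61.5% in TAC-6w, and for Fos 52.0%, 42.5% and 68.97%. The part of the preparation in these values was not tested. The 10 cell cycle genes stood at 1829, 1481, 925 and 567 CPM, and Mki67 or Top2a were detected in 28.6%, 28.1%, 15.4% and 10.0% of the cells. Thinned to 1000 UMIs, the shares were 12.5%, 14.5%, 5.98% and 10.5%, so the low share of TAC-6w was not kept at matched depth.

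RNA of other cell types was counted with the CD8 T cells, in different amounts in each library. The 6 fibroblast genes, led by Gsn, stood at 7300, 4622, 47.4 and 3258 CPM, and the 6 endothelial genes, led by Fabp4, at 55.6, 1370, 302 and 43.6 CPM. Few cells carried most of it. For Gsn, 3 cells held 84.5% of the UMIs in sham and 92.1% in TAC-2w, and 1 cell held 94.3% in TAC-6w. For Fabp4, 3 cells held 96.5% in TAC-2w and 1 cell 73.5% in TAC-4w. At least 3 collagen UMIs were found in 9 of the 250 CD8 T cells. The 6 neutrophil genes, led by S100a9, stood at 9.68, 4.94, 519 and 29.1 CPM, and S100a9 was found in 65.0% of the TAC-4w CD8 T cells and in 55.5% of the TAC-4w B cells. In the other 3 libraries it was found in at most 10.0% of the CD8 T cells and 4.02% of the B cells, so in both cell types TAC-4w was the library where it was common.

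This RNA also led the genes with the most extreme ratios. Among the smallest ratios of TAC-4w to sham were those of C3, Cd63, Col15a1, Dpep1 and Gpx3, all with no UMI in TAC-4w. They tie at 0 and so have no order. In sham 74.3% of the Gpx3 UMIs lay in 3 cells. The 5 largest ratios were those of S100a8 (150 UMIs against 0), S100a9 (196 against 1), Fabp4, the platelet gene Nrgn and BE692007. Of these BE692007 was 5.95-fold (3.37 to 11.5) and spread over 50 cells against 12.

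In TAC-2w the smallest ratios were those of Retnla, Cxcl2, Gzma, Capg and Plek. Of the sham UMIs, a single cell held 98.9% for Retnla and 99.5% for Cxcl2, genes of myeloid cells. Capg was found in 19 cells of sham and 7 of TAC-2w. Still, 3 cells held 55.9% of the sham UMIs for Capg and 65.6% for Plek. The largest were those of Cavin2 (92% in 3 cells), Fabp4 (63.6% in 1 cell), Eln (97.5% in 3 cells), Arpp21 and Sox4. Arpp21 was 7.55-fold of sham (3.88 to 16.4) and found in 16 cells against 4, and Sox4, a transcription factor of immature lymphocytes, was 6.04-fold (3.25 to 12.2) and found in 17 cells against 6.

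In TAC-6w the smallest ratios belonged to genes with no UMI there, which tie at 0 and so have no order. Birc5, Ccl3, Ccl6, Cxcl2 and Hist1h2ab are the first of these by name, and the tie also holds Retnla. Among the largest were those of the ribosomal-protein gene Gm11808 (5.70-fold, in 15 of 20 cells against 32 of 56), of Nr4a1, and of C3 and Bgn, whose UMIs lay in 1 cell for 100% and 94.8%. Nr4a1, which follows T cell receptor signals, stood at 152, 185, 35.2 and 756 CPM, but 75.0% of its UMIs in TAC-6w lay in 1 cell. Ribosomal protein genes as a whole took 265674, 298360, 304794 and 395125 CPM of the CD8 T cells, most in TAC-6w.

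CD8 T cells were set against CD4 T cells of the same libraries, 24, 21, 102 and 6 cells, with the library as a block in edgeR's quasi-likelihood test, since each library gave a sum for both types. Of 4597 genes tested, 29 were higher in CD8 T cells (0.631%) and 19 were lower (0.413%) at a Benjamini-Hochberg adjusted p under 0.05. The genes of the rule were left out. The libraries are single, so the test measures how evenly the types differed over them.

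Effector genes led the difference. Of the 23 tested, 12 were higher in CD8 T cells by edgeR (9 by DESeq2) and none lower (0 also by DESeq2 and at an unadjusted p under 0.05), with a median log2 fold of 1.92 beside -0.02 over all genes. Gzma stood at 1669, 254, 922 and 175 CPM in CD8 and 42.3, 22.4, 15.7 and 26.8 CPM in CD4 T cells, a log2 fold of 5.12 ± 0.40 (SE, edgeR adjusted p = 1.50e-05, 4 libraries). Prf1 (3.68 ± 0.45, edgeR adjusted p = 0.000972), Klrd1 (3.26 ± 0.38) and Ccl5 (2.54 ± 0.45, edgeR adjusted p = 0.0134) were higher as well. Gzmm, Klre1, Klrc2 and Cd160, the last 3 being receptors shared with NK cells, had at most 3 UMIs each in all CD4 T cells. Eomes, a transcription factor of effector and memory CD8 T cells, had a log2 fold of 4.66 ± 0.96 (edgeR adjusted p = 0.0334). For Nkg7 the log2 fold was 1.03 ± 0.24 and the edgeR adjusted p 0.0727, so it missed the threshold.

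Naive genes differed less between CD8 and CD4 T cells. Of 14 tested, edgeR and DESeq2 called none higher and 1 lower. At an unadjusted edgeR p under 0.05, 1 was higher and 2 were lower. The median log2 fold was -0.29 beside -0.02 over all genes. Il6ra, the receptor for interleukin 6, was lower in CD8 T cells (log2 fold -1.88 ± 0.31, edgeR adjusted p = 0.00794). The log2 folds of Ccr7 (-0.17), Lef1 (-0.68), Tcf7 (0.33), Il7r (-0.51), S1pr1 (-0.25), Klf2 (0.34) and Satb1 (0.18) did not pass. Ccr9 (log2 fold 3.99 ± 0.69) and the recombination genes Dntt and Arpp21 were higher in CD8 T cells by edgeR, and none of these 3 was called by DESeq2. Cells with Cd4 and a CD8 gene were left out of both types, and 29 CD8 against 2 CD4 T cells carried the recombination genes.

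Among the 19 lower genes were costimulatory receptors of the tumour necrosis factor family and helper cell genes. Tnfrsf4 (OX40) had 0, 0, 1.36 and 0 CPM in CD8 and 284, 67.3, 107 and 241 CPM in CD4 T cells (log2 fold -7.21 ± 0.53, edgeR adjusted p = 1.50e-05). Cd40lg, the helper signal to B cells, had a log2 fold of -5.52 ± 0.53 (edgeR adjusted p = 0.000114), Maf, a transcription factor of helper cells, -3.01 ± 0.29, and Tnfrsf18 -1.92 ± 0.29. Izumo1r (-3.09), Ass1 (-2.40) and Smco4 (-2.25) completed the genes with the largest folds, together with the haemoglobin genes Hba-a2 (-3.59) and Hbb-bt (-3.11). In the CD4 T cells 95% of the Hba-a2 UMIs of TAC-4w and 66.9% of those of sham lay in a single cell.

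These calls leaned on TAC-4w, the library with the most cells. Without it only 2340 genes were tested, of which 11 were higher and 4 lower. Ccl5, Gzmb, Gzmk, Klrc1, Ifng, Fasl, Dntt, Icos, Tnfrsf18, Hba-a1, Hba-a2, Hbb-bs, Ass1 and Smco4 lost the call while keeping their direction. Genes that were then no longer tested are not among these. Leaving out TAC-6w gave 29 lower genes of 5383 tested. Without sham Gzmb, Ifng, Il6ra, Icos, Smco4, Hba-a1 and Hbb-bs lost the call, and without TAC-2w Eomes, Ccr9, Ifng, Izumo1r and Smco4.

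**Figure D5:**
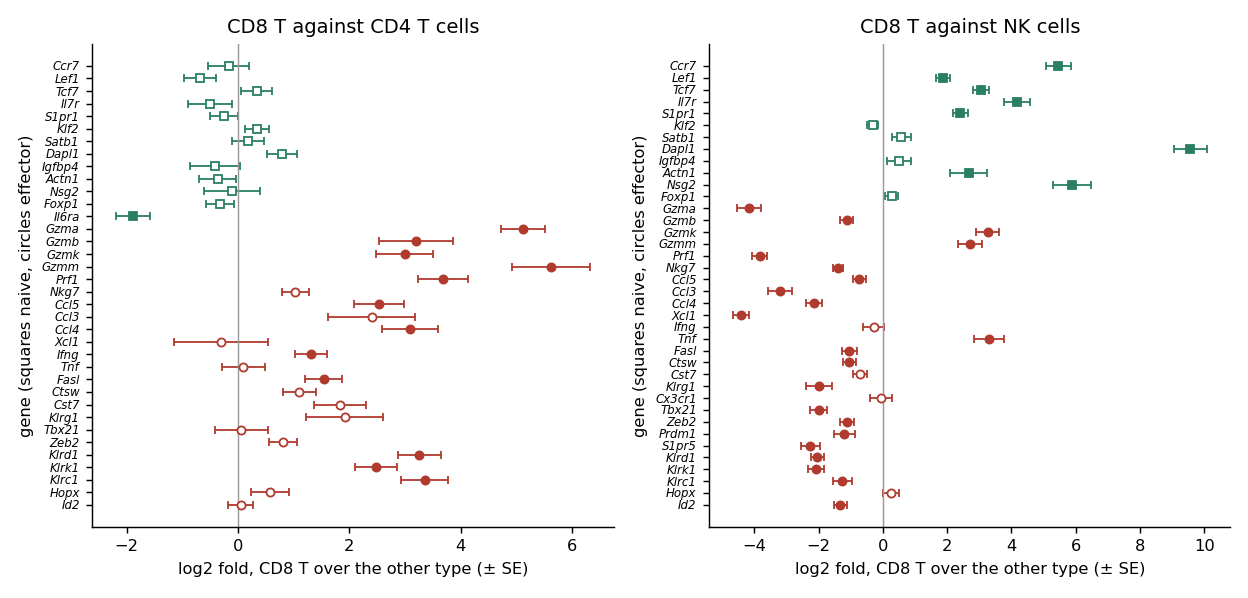
Log2 fold of CD8 T cells over CD4 T cells (left) and over NK cells (right) for genes of the naive and effector lists, with squares for naive and circles for effector genes, bars of 1 standard error from edgeR over 4 libraries and filled points for an adjusted p under 0.05. Effector genes such as Gzma lie above CD4 T cells (5.12) and below NK cells (-4.17), and naive genes such as Ccr7 lie near CD4 T cells (-0.17) and above NK cells (5.46).

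NK cells were barcodes with at least 2 UMIs of Ncr1 and Klrb1c and no CD3 UMI, and numbered 155, 32, 318 and 32. Of 6144 genes tested in the same way, 428 were higher in CD8 T cells (6.97%) and 359 lower (5.84%). Of the naive genes tested, 8 of 13 were higher and 1 was lower. Ccr7 stood at 48.4, 190, 115 and 131 CPM in CD8 T cells and 1.06, 0, 3.59 and 0 CPM in NK cells (log2 fold 5.46 ± 0.38, edgeR adjusted p = 2.45e-06). Il7r (4.16 ± 0.41), Tcf7 (3.06 ± 0.24), S1pr1 (2.42 ± 0.23) and Lef1 (1.87 ± 0.20) were higher too.

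Most effector genes were lower in CD8 T cells than in NK cells, 19 of 26, and 3 were higher. Prf1 had a log2 fold of -3.84 ± 0.23, Gzma -4.17 ± 0.37, Xcl1, a chemokine for dendritic cells, -4.42 ± 0.24 and Nkg7 -1.40 ± 0.16. Ccl5 was nearer, at -0.74 ± 0.20 (edgeR adjusted p = 0.0296). The 3 higher genes were Gzmk (3.26 ± 0.36, edgeR adjusted p = 7.59e-05), Gzmm (2.71 ± 0.38) and Tnf (3.31 ± 0.46). Among the granzymes, Gzmk and Gzmm were thus higher and Gzma and Gzmb lower than in NK cells.

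The T cell receptor genes Trbc1 and Trbc2 were detected in NK cells too, Trbc2 at 204, 237, 188 and 221 CPM against 1405, 1683, 1741 and 771 CPM in CD8 T cells (log2 fold 2.88 ± 0.21). The genes with the largest folds were nearly absent from NK cells. Cd6 and Cd5, receptors that set the strength of T cell receptor signals, had 251 and 202 UMIs in CD8 T cells and 0 and 1 in NK cells. Themis, a signalling protein of T cell development, had 234 against 0, at least 140-fold higher with 3 UMIs set as the limit over all NK cells, and Dapl1 248 against 0, at least 148-fold. Ccr9 (at least 57.3-fold), Fam169b, Gm8369, Dpp4 and Gm44175 completed the 10 largest. In the other direction Klra4 had 0 against 2428 UMIs, at least 452-fold lower, and Klra8 1 against 1856, both Ly49 receptors of NK cells. Klrb1a, Klri2, Cma1, Khdc1a, Serpinb9b, Styk1, Phactr3 and Clnk had no UMI in CD8 T cells.

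Other lists differed from NK cells as well. Of the interferon-inducible genes 7 of 12 were higher in CD8 T cells by edgeR and 4 by DESeq2, and of the cell cycle genes 8 of 10 by edgeR and 7 by DESeq2, where edgeR called 6.97% of all genes higher. Without the cells with recombination genes Mki67, Top2a, Birc5, Stmn1 and Mcm5 lost the call. Cxcr3 was higher (1.72 ± 0.35). Without TAC-4w 114 of 4560 genes tested were higher and 134 lower than in NK cells. Ccl5, Gzmm, Tnf and Cxcr3 were among those that lost the call. Without sham the counts were 246 and 200 of 4662 genes tested, and Ccl5 and Cxcr3 lost the call. Ccl5 lost it also without TAC-2w and without the cells with recombination genes.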

How the data were processed

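Cell Ranger and Space Ranger output for 4 single-cell libraries and 4 Visium sections was used. The authors counted UMIs per gene and barcode or spot and deposited these counts without normalization, for barcodes called as cells and spots over tissue. The file headers name Cell Ranger 6.0.0 and Space Ranger 1.2.0, the submitters' processing notes Cell Ranger 7.0.0, Space Ranger 1.3.1 and mm10. The 4 libraries held 86671674, 78587992, 48278486 and 28793316 UMIs from sham to TAC-6w and the sections 25996378 to 48754396. Whether hearts were pooled is not given in the sources used here.

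UMIs of the CD8 T cells were summed per library and divided by their total (CPM, with all 32285 genes in the total). The 95% intervals are exact Poisson for counts, conditional binomial for ratios and Clopper-Pearson for shares. A level of 0 was set at 3 counts for a limit. Doublets were left in, and leaving out the 3.2% of barcodes with the highest Scrublet scores was an alternative. Types were compared with edgeR 4.0.16 (glmQLFTest, TMM, filterByExpr, library as block, Benjamini-Hochberg) in R 4.3.3, after leaving out the genes of the rules, and with DESeq2 1.42.0 as an alternative. Other values came from Python 3.11.15, numpy 2.4.6, scipy 1.17.1 and scanpy 1.11.5. The comparisons of types were tested on simulated data. Of genes changed 4-fold, 83.9% were recovered against CD4 T cells and 86% against NK cells. Of those changed 2-fold, only 22.3% and 12.4% were recovered, so a gene that was not called may still differ 2-fold. The simulated counts had a wider spread (dispersion) than the 0.0497 and 0.0355 estimated from the data. They had no differences in expression between libraries, and only well-counted genes were changed. These percentages hold for those settings and not for every gene.

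The cells and the 24 gene lists were chosen with earlier results of these data known. Named are list genes that carry a comparison, and for each TAC library the 5 largest and 5 smallest ratios to sham among those with at least 50 UMIs. Between types they are the 10 called genes with the largest fold each way that moved alike in all 4 libraries. Genes of the rule, mitochondrial, Rpl and Rps and haemoglobin genes and receptor V segments were left out of the TAC lists. Other genes were named after their values were seen. The split of the cells by recombination, naive and effector genes was also made then. A gene of the naive list and a gene among the largest TAC-6w ratios are not reported here.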

Additional observations from a re-analysis of the deposited data

Results flagged for a closer look

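Genes of receptor recombination were looked for in all kept barcodes, the CD8 T cells included (4, 15, 10 and 0 of the barcodes found). At least 2 UMIs of Rag1, Rag2, Dntt, Ptcra and Arpp21 were found in 0.661% of the kept barcodes of TAC-2w (43 of 6501) and in 1.2% of those of TAC-4w (81 of 6747), above the 0.280% of sham (23 of 8228). In TAC-6w they were found in 0.0717% (4 of 5577). Most of these barcodes lay outside the CD8 T cells, and the T cell barcodes with both Cd4 and a CD8 gene gave 10, 18, 41 and 0 of them. B cells gave 3, 2, 21 and 3. With 1 library for each condition, no library could be compared with others of its own condition.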

How the results depend on the processing

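Ratios to sham are given for TAC-2w, TAC-4w and TAC-6w. With stricter members (no UMI of 9 genes of other lineages), the CD8 T cell share of TAC-4w was 1.41-fold of sham. The naive list moved with Cd8b1 required (TAC-2w 1.57, TAC-4w 1.65), stricter members (1.65, 1.72), the highest Scrublet scores left out (1.53, 1.64), a mitochondrial share under 5% (TAC-2w 1.53, TAC-6w 1.47), a mean over cells (TAC-4w 1.41) and without Klf2 (TAC-2w 1.66, TAC-4w 1.86), always above 1. The effector list stayed under 0.6-fold in TAC-2w: 0.494 with Cd8b1 required, 0.594 with stricter members, 0.554 under 5% mitochondrial share, 0.451 without barcode filters, 0.535 without cells with recombination genes, 0.446 thinned, 0.416 as a mean over cells, 0.509 without Ccl5 and 0.451 without the cell with the most list UMIs. In TAC-4w it was 1.05 with Cd8b1 required, 0.845 with stricter members, 1.03 under 5% mitochondrial share and also without cells with recombination genes, 0.839 thinned, 0.852 as a mean over cells and 0.822 without Ccl5. It was 0.891 without the highest Scrublet scores and 0.850 without cells with fibroblast RNA. In TAC-6w it was 0.880 with at least 3 CD3 UMIs, 1.04 without the highest Scrublet scores, 1.03 under 5% mitochondrial share, 0.904 without cells with recombination genes, 1.04 thinned, 0.545 without Ccl5 and 1.04 without cells with fibroblast RNA. Its direction in TAC-4w and TAC-6w thus depended on the setting. The cause was not tested.

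Single genes turned direction with stricter members: Ccr7 in TAC-6w (0.975), Igfbp4 in TAC-4w (2.11), Gzmk in TAC-2w (1.07), Ccl5 in TAC-4w (0.960) and Zeb2 in TAC-4w (1.61). Without the highest Scrublet scores so did Igfbp4 (1.86) and Ccl5 (0.983) in TAC-4w. Over all CD8 T cells Igfbp4 stood at 256, 247, 54.2 and 204 CPM from sham to TAC-6w, with 71.7% of its sham UMIs in 3 cells. Zeb2 stood at 196, 96.2, 142 and 29.1 CPM. At a minimum of 50 UMIs, 1162, 1934 and 1048 genes were compared. Of these 22, 87 and 31 were at least 2-fold and 32, 107 and 223 at most 0.5-fold. Without cells with recombination genes 87 of 2739 were at least 2-fold in TAC-2w.

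Against CD4 T cells, DESeq2 gave 16 higher genes of 4597. No filter gave 81 higher and 51 lower of 14940, and stricter members 16 and 6 of 2629. Leaving out 1 library gave 11 to 41 higher and 4 to 29 lower, of 2340 to 5383 genes tested. Against NK cells this gave 114 to 444 higher and 134 to 368 lower, of 4560 to 6744 genes tested. Without the library block, 5 genes of 3469 were higher and 4 lower than in CD4 T cells. Against NK cells it was 144 and 160 of 4830. Against NK cells Birc5 turned with stricter members (log2 fold -0.056) and H2-Ab1 in barcodes of 2000 to 10000 UMIs (-0.59). In the sections the naive list, mostly Klf2 and Igfbp4, was 0.736, 1.06 and 1.15, and 0.629, 0.884 and 0.997 with mitochondrial and ribosomal-RNA-like genes out of the total. The effector list, mostly Hopx, was 1.37, 1.18 and 1.28, and 1.17, 0.991 and 1.11.

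No paired analysis was possible because each condition had 1 library and the replicate numbers mark no pairs, which concerns comparisons between conditions only. Cell types of the same library were compared with the library as block. Alternatives without cells with recombination genes, without cells with fibroblast RNA and without the cell with the most list UMIs were added after the data were seen. The TAC-6w values rest on 20 cells, so a gene with few UMIs there has a wide interval.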

Other observations

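Further gene groups were measured in the CD8 T cells. The MHC class I genes, by which any cell shows peptides to CD8 T cells, stood at 8052, 6690, 7460 and 7578 CPM from sham to TAC-6w. The 20 genes of antigen receptor signalling, which include those of the rule, stood at 8364, 8635, 10523 and 6487 CPM, led by the receptor constant gene Trbc2 at 1405, 1683, 1741 and 771 CPM. Ifit1, an interferon-inducible gene, stood at 58.1, 123 and 27.1 CPM in the first 3 libraries and had no UMI in TAC-6w. Tnf, an inflammatory cytokine, stood at 43.5, 12.3, 97.6 and 175 CPM, and Fasl, a death ligand, at 79.8, 51.8, 153 and 131 CPM.

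Genes of neighbouring lymphocytes were low. The NK list stood at 218, 350, 74.6 and 189 CPM. Fcer1g gave 50% of its UMIs, at 89.5, 225, 17.6 and 131 CPM, while Klra4 and Klri2 of the same list had none. The B cell list stood at 109, 180, 191 and 102 CPM, led by Ighm. The macrophage genes, of which Lyz2 gave 73.2%, stood at 612, 294, 59.7 and 72.7 CPM. The dendritic cell list stood at 1110, 718, 63.7 and 58.2 CPM, all from the MHC class II genes H2-Aa, H2-Ab1 and H2-Eb1. Xcr1, Clec9a and Flt3, the rest of that list, had no UMI, so it does not mark dendritic cells here. Of the cardiomyocyte genes Myh6 was the most abundant, at 41.1, 56.8, 2.71 and 0 CPM. Sham was the highest library for the sums of the macrophage and dendritic cell lists. TAC-2w was the highest for the sum of the NK list, as it was for Fcer1g alone.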
